A study of Mus musculus with 39 samples.

Results

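Cytosolic ribosomal protein genes were followed across 39 single cells of adult mouse liver. Each of these genes encodes a protein of the large (Rpl) or small (Rps) subunit of the ribosome that translates the mRNA of the cytosol. They were taken as every gene symbol that starts with Rpl or Rps and then a digit, leaving out the Rps6k kinases, which gave 88 of the 10061 symbols measured, 51 of the large and 37 of the small subunit. The 88 symbols were measured through 102 of 13568 RefSeq transcripts. Of the 88, 73 are the usual genes of these proteins. The other 15 are 8 further copies with a symbol of their own (Rpl7l1, Rpl10l, Rpl22l1, Rpl36al, Rpl39l, Rps4l, Rps27l and Rps27rt), 6 symbols that mark a pseudogene (Rpl14-ps1, Rpl31-ps12, Rpl34-ps1, Rps15a-ps4, Rps15a-ps6 and Rps19-ps3) and Rps19bp1. Rps19bp1 meets the pattern but encodes a protein that binds Rps19, not a protein of the ribosome. The pattern leaves out 6 ribosomal protein genes with other names, Rplp1 and Rplp2 among them, which are described beside the members.

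The cells were sorted as GFP+ and picked singly, and all 39 form 1 group in the labels. All came from mice carrying Krt19CreERT, a tamoxifen-inducible Cre driven by the promoter of the bile duct keratin Krt19, and Rosa26CAG-EGFP, a reporter that turns green for good once Cre has acted. By this design a green cell is one that used the Krt19 promoter when Cre was active, or a descendant of such a cell. Whether each sorted cell meets this was not tested. The labels name no animal, age, dose, sort or run, so the cells are not replicates of anything and no test between cells was made. Differences are described by medians, ranges and counts, beside the same counts over all genes measured.

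Marker genes, none of them a ribosomal protein gene, placed the cells in 4 groups. Hepatocyte-like cells (6 cells, numbers 1 to 4, 38 and 39) held a median of 29.5 of 34 hepatocyte markers at 100 CPM (range 28 to 33). In the 7 cells numbered 5 to 8, 10, 35 and 37 a median of 6 of 11 mesothelial and 4 of 12 fibroblast markers reached that level, and they are called mesothelial and fibroblast marker cells. The 4 cells numbered 29, 32, 33 and 36 each held 4 of 5 general leukocyte markers and are called blood marker cells. The other 22 were cholangiocyte-like, with a median of 7 of 17 bile duct markers (range 2 to 10) and a median of 3 hepatocyte markers (range 0 to 13). Values are CPM on the deposited scaling, and a gene was called detected at 1 CPM.

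Ribosomal proteins are made in about equal numbers, since each ribosome carries nearly all of them once. In mammals their mRNAs are as a rule abundant in every cell type, and most begin with a run of C and T known as the 5′ terminal oligopyrimidine (TOP) tract. Through this tract the growth kinase mTOR and the RNA-binding protein Larp1 set how much of the mRNA is translated. In liver, hepatocytes make large amounts of plasma protein and are rich in ribosomes.

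The starts of 11 genes that the results below turn on show how the tract looks in the reference. Each line gives the 30 bases from 10 before to 20 after a RefSeq start in GRCm38.p6, 5′ to 3′ on the strand of the gene. Capitals mark the longest run of a C followed by at least 4 pyrimidines, and a line without capitals has no such run. Rps6 and Rps2 had the highest levels per length, and Rpl35a, Rps10 and Rpl39 differed most between hepatocyte-like and cholangiocyte-like cells. Rps3a1 and Rpl12, together with Rpl3, whose start is not shown, differed most between mesothelial and fibroblast marker cells and cholangiocyte-like cells. Rpl13 was lower in hepatocyte-like cells, Rpl15 varied with the other members least among the standard genes, and Rps27 and Rps27rt are near-identical copies.
Rps6, chr4:86857348-86857377, minus strand: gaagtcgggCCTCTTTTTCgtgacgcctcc
Rps2, chr17:24720053-24720082, plus strand: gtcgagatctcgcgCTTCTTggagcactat
Rpl35a, chr16:33056472-33056501, plus strand: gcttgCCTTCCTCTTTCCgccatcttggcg
Rps10, chr17:27635225-27635254, minus strand: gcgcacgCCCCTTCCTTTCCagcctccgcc
Rpl39, chrX:37085203-37085232, minus strand: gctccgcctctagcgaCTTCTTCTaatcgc
Rpl12, chr2:32961702-32961731, plus strand: agcaggatccgtCTTTTCggctttcggctc
Rps3a1, chr3:86142649-86142678, minus strand: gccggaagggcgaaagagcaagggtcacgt
Rpl13, chr8:123102340-123102369, plus strand: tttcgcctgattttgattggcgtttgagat
Rpl15, chr14:18270967-18270996, minus strand: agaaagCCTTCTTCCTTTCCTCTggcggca
Rps27, chr3:90213629-90213658, minus strand: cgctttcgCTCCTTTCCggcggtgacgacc
Rps27rt, chr9:114982720-114982749, minus strand: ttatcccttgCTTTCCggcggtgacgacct
In Rps6, Rpl35a, Rps10, Rpl15, Rps27 and Rps27rt the start shown lies inside the tract. In Rps2, Rpl12 and Rpl39 the tract begins downstream of the start, and the windows of Rps3a1 and Rpl13 hold none. Rpl35a has further annotated starts, and their windows, chr16:33056443-33056472 and chr16:33056504-33056533, hold no such tract.

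Over the whole set, 63 of the 88 symbols had a start in the RefSeq promoter table, with 74 starts among them. A start at a C followed by at least 4 pyrimidines was found for 13 of the 63 (20.6%), against 3.01% of the 27025 genes in that table. A run of this kind within 10 bases on either side of a start was found for 34 (54.0%), against 28.8% of all genes. In the 300 bases from 250 before to 50 after the start, the letters CCGGAAG, the core of the site bound by ETS family factors, stood on either strand in 24 of the 63 (38.1%), against 9.93% of all genes. The letters AAGATGGC, the core of the YY1 motif, stood in 6 (9.52%), against 3.19%. These are matches of letters in a reference, and an annotated start may lie some bases from the one used in these cells.

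Most members were seen in most cells, but few in every cell. A median of 74 of 88 members was detected per cell, from 31 in cell 15 to 86 in cell 38, and a median of 43 reached 100 CPM. A member was detected in a median of 34 cells, whereas a gene of the whole table was detected in a median of 9. Of the members, 65 were detected in at least 30 cells and 5 in all 39, Rpl13, Rpl37a and Rps2 among them (39 of 39 cells, exact 95% interval 91.0% to 100%, which covers the choice of cells alone). Without cells 15, 16 and 17, the 3 with the fewest genes detected, 11 members were detected in all cells. A member without a value in a cell is reported as listed at 0, because 6 of 13 housekeeping genes were also listed at 0 in at least 1 cell.

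The members that few cells held were mostly not the standard genes. Detection in fewer than 10 cells applied to Rps19-ps3 (3 cells), Rpl10l and Rpl39l (5 each), Rps19bp1 (7) and Rps4l (8), and none of these 5 is a standard gene. Rpl39l, the copy of Rpl39 known in mouse mainly from germ cells of the testis, was detected in 4 hepatocyte-like cells, at 13.4, 136, 8.66 and 5.46 CPM in cells 1 to 4, and in cell 12 of the cholangiocyte-like cells at 3.25 CPM. Rpl10l, the autosomal copy of the X-linked Rpl10 known in mouse from male meiosis, stayed under 9 CPM in all cells, with its highest value of 8.96 CPM in cell 3. Rps4l was at 431 CPM in cell 9 and 216 CPM in cell 20, 2 cholangiocyte-like cells, and it was listed at 0 in 26 cells. Its highest hepatocyte-like value was 128 CPM, and it was detected in 3 of 6 hepatocyte-like and 5 of 22 cholangiocyte-like cells. Rps19bp1 was at 405 CPM in cell 24 and at 42.7 CPM or less in the other cells. Among the standard genes, Rpl39 alone was detected in fewer than 20 cells (18 of 39, exact 95% interval 30.1% to 62.8%).

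Per kilobase of transcript, the highest median levels came from genes of both subunits. The median was 196 CPM per kilobase over the 49 large subunit members with a length and 210 over the 36 small subunit members with one. Rps2, a protein at the mRNA entry side of the small subunit, had a median of 1705 CPM per kilobase and Rps6, the small subunit protein phosphorylated by the S6 kinases, 1541. Rps14 followed at 1270, Rpl41, the smallest ribosomal protein, at 1088, and Rps19, mutated in Diamond-Blackfan anaemia, at 926. The median over the 73 standard genes was 231 CPM per kilobase, and over the 12 of the other 15 symbols with a length it was 8.39. In CPM, Rps2 reached from 4.85 in its lowest cell to 6745 in cell 22, and Rps6 from 0.999 to 6700 in cell 24. Rpl41 varied less than these, with a standard deviation over cells of 1.69 on the log2(CPM + 1) scale, against 2.48 for Rps2 and 2.41 for Rps6.

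**Figure D1:**
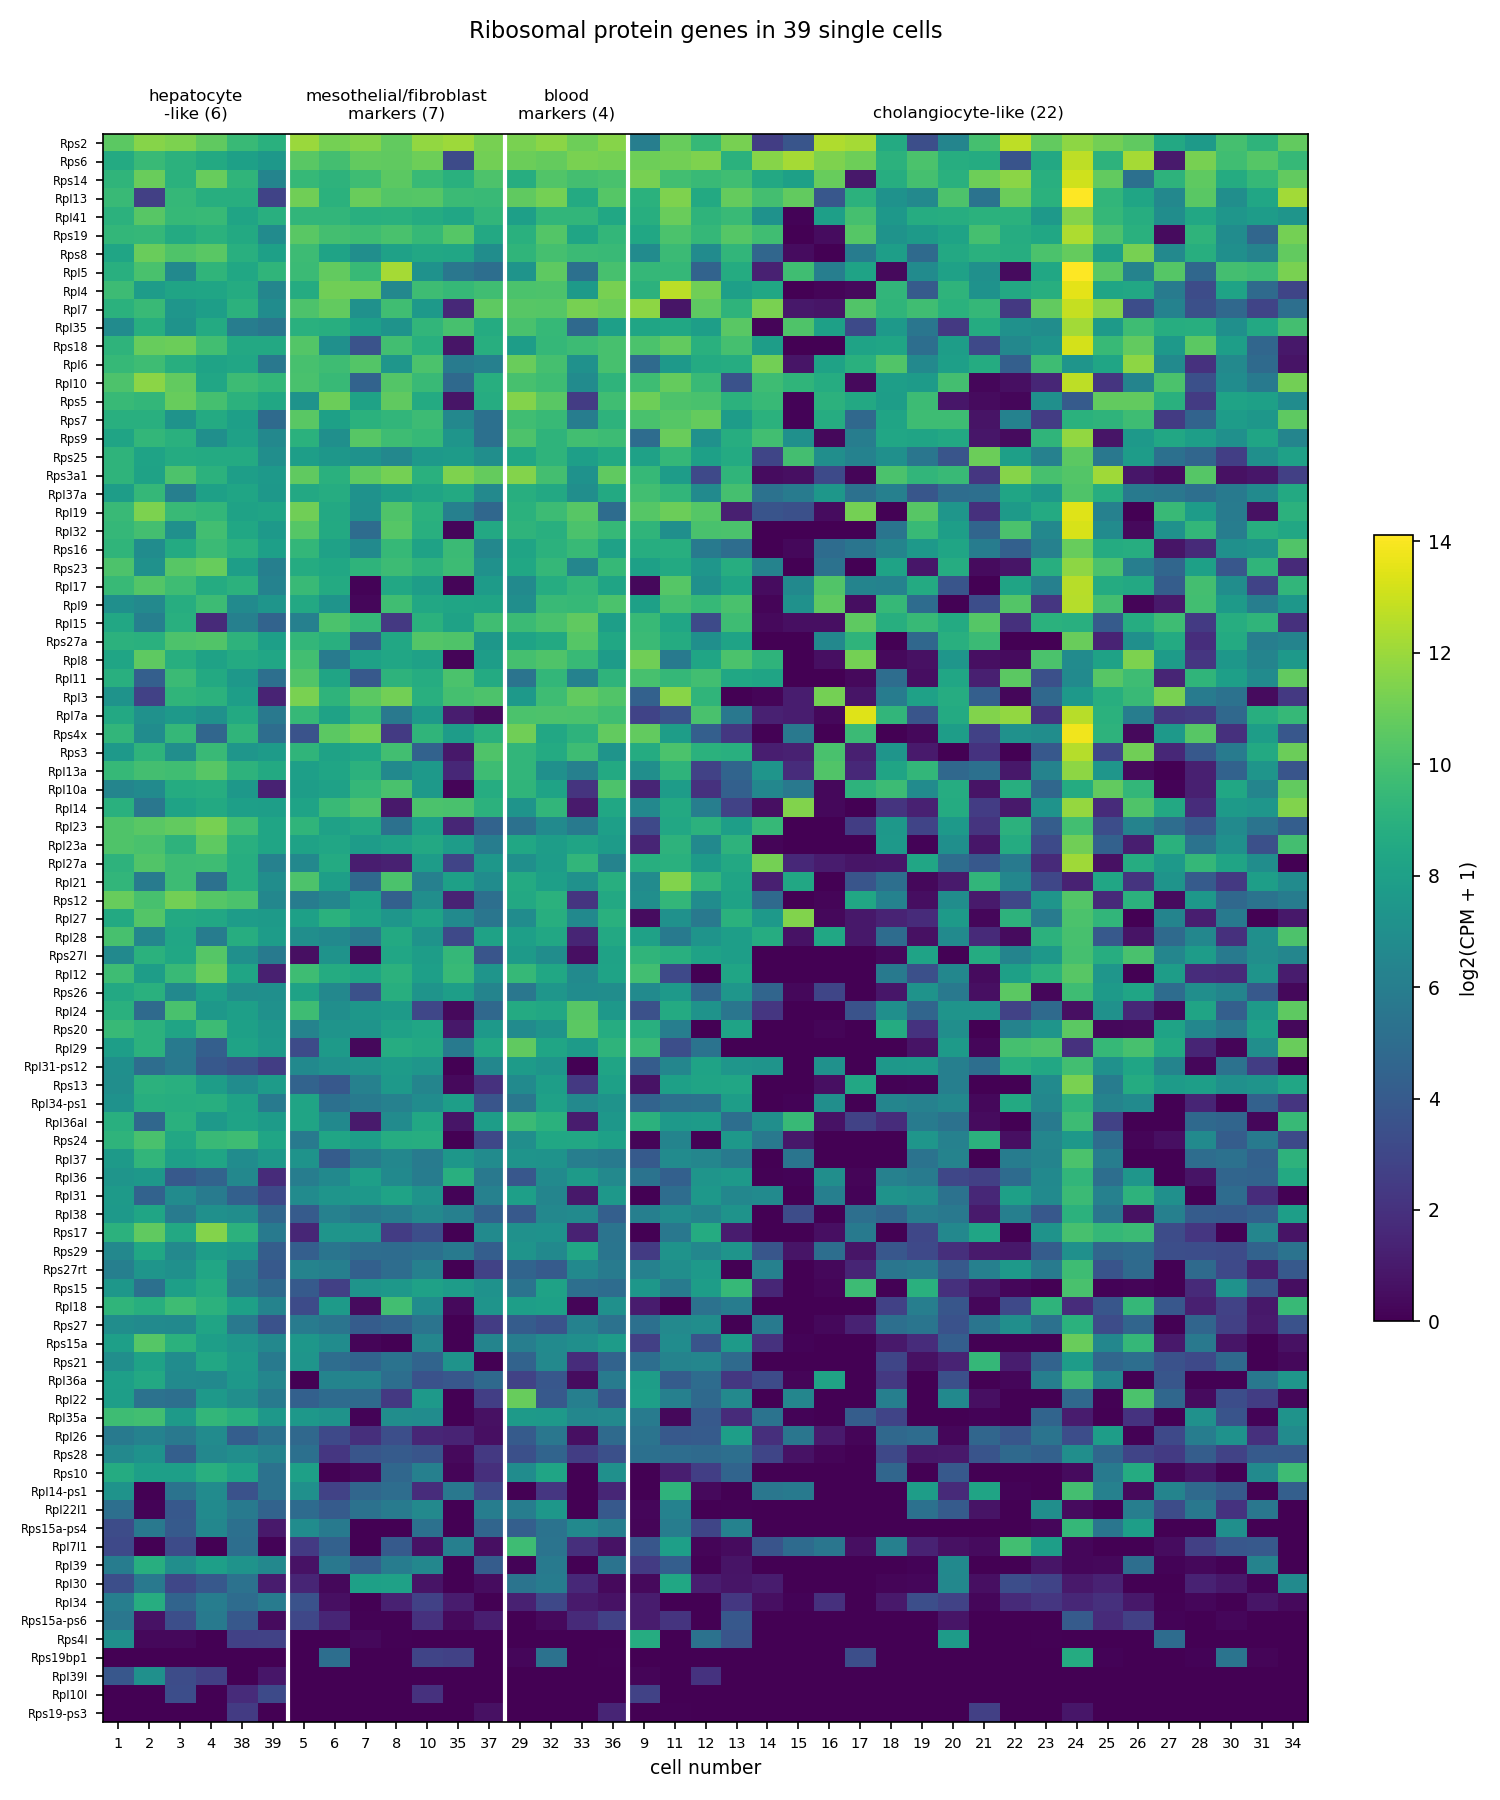
Level of 86 of the 88 members (rows, by falling mean) in each of the 39 cells (columns, by group), as log2(CPM + 1). Dark squares are cells where a member was at or near 0, and they lie mostly among the 22 cholangiocyte-like cells, with cells 14 to 17 dark in many rows and cell 24 bright in most.

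The largest spread over cells fell on members that were abundant in some cells and nearly missing in others. Among members detected in at least 20 cells, the standard deviation of log2(CPM + 1) was highest for Rps3a1 (4.02), a small subunit protein at the exit side, followed by Rpl29 (3.92), Rpl3 (3.79), Rpl12 (3.78) and Rps4x (3.75). Rps3a1 was at a median of 582 CPM, with 4438 CPM in cell 25 and 0.147 CPM in its lowest cell. Rpl3, a protein at the peptidyl transferase centre of the large subunit, had its median at 265 CPM and its highest value, 3142 CPM, in cell 11. At the other end of the scale, Rpl37a (1.60), named after its value was seen, and Rpl41 (1.69) had the lowest values.

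Members with roles outside the ribosome or in ribosome stress were also broadly present. Rpl5 and Rpl11, which form a particle with 5S rRNA that binds the p53 regulator Mdm2 when ribosome assembly fails, were detected in 37 and 35 cells at medians of 417 and 329 CPM. Rps27a, made as a fusion with ubiquitin, was detected in 34 cells at 349 CPM. Rpl10, which joins the large subunit late in its assembly, was detected in 36 cells at 599 CPM, and Rps3, at the mRNA entry channel, in 36 at 212 CPM. Rpl38, needed in mouse for translation of a subset of Hox mRNAs, was detected in 35 cells at 57.5 CPM. Rpl13a, known for a role in translational silencing in myeloid cells, was detected in 36 at 163 CPM. Rps24, a further gene of Diamond-Blackfan anaemia, was detected in 29 at 88.1 CPM. These medians are not per length and are given for each gene alone.

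Several members share most of their sequence with other genes, so that reads could be split between them by the authors' counting. Of 85 members with a transcript in the GENCODE annotation of GRCm38, 56 had more than 50% of their 30-base stretches in common with another annotated gene, and the median was 61.8%. Rps27 shared 98.7% of its 30-base stretches with Rps27rt, and the levels of these copies ran together over the 39 cells (Spearman 0.979), at medians of 98.5 CPM per kilobase for Rps27 and 123 for Rps27rt. Rps15a and Rps15a-ps4 (0.797), Rpl31 and Rpl31-ps12 (0.884) and Rpl34 and Rpl34-ps1 (0.754), pairs named after their values were seen, also ran together. Rpl34-ps1 was detected in 33 cells and Rpl34 in 22, but no length was had for Rpl34-ps1 and their levels are not compared. Values of these pairs are uncertain for either gene alone. Across the 73 standard genes the shared percentage and the number of cells in which a gene was detected had a Spearman correlation of -0.044, given as a description.

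Copies that code for a protein of their own differed from their parent genes in both directions. Rps27l, a p53 target in mammals, had a median of 305 CPM per kilobase, against 98.5 for Rps27. The value of Rps27 alone is uncertain, since its reads could be split with Rps27rt. Rps27 and Rps27rt summed had a median of 80.1 CPM, against 152 CPM for Rps27l, not per length. Rpl36al had 196 CPM per kilobase, against 33.9 for Rpl36a. Rpl22l1 had 25.7 CPM per kilobase, against 55.9 for Rpl22, the protein it can stand in for in mouse. The value of Rpl22 rests on a transcript of 474 bases, while the transcript matched to its entries has 2051 bases. With the longer one Rpl22 would lie below Rpl22l1, so their order depends on the length used. Rpl7l1, a homologue that acts in ribosome assembly, had 3.22 CPM per kilobase, against 502 for Rpl7, and over the cells their correlation was -0.162. The median of Rpl10l and Rpl39l was 0, against 749 CPM per kilobase for Rpl10 and 1.16 for Rpl39. Rps4l, whose RefSeq entry is non-coding, also had a median of 0, against 224 CPM per kilobase for Rps4x.

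Taken as a sum, the members made up a few per cent of what was measured in a cell. The median of the summed level was 30902 CPM. It was lowest in cell 30 (10353 CPM) and highest in cell 24 (233220 CPM). As a share of the summed CPM of the cell, which does not depend on the scaling of that cell, the median was 2.86%, from 1.09% in cell 15 to 7.66% in cell 4. A share above 4% was found in 11 cells, of which 5 were hepatocyte-like, 1 was a mesothelial and fibroblast marker cell, 3 were blood marker cells and 2 were cholangiocyte-like. The 9 cells with a share under 2% were all cholangiocyte-like. The 5 highest members of a cell held a median of 32.8% of the summed member level, from 17.8% in cell 38 to 73.8% in cell 15.

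The share differed between the groups of cells, with wide overlap. In hepatocyte-like cells it was 4.70%, 4.38%, 5.17%, 7.66%, 4.71% and 3.31% in cells 1 to 4, 38 and 39, a median of 4.71%. In mesothelial and fibroblast marker cells the median was 3.00% (range 2.07% to 4.20%). The blood marker cells numbered 29, 32, 33 and 36 had 4.30%, 5.49%, 2.35% and 5.42%. In cholangiocyte-like cells the median was 2.05%, with a range of 1.09% to 7.46%. Cell 24 set the top of that range, and without it the highest cholangiocyte-like share was 4.01%. Every hepatocyte-like cell except cell 39 then lay above all of the 21 remaining cholangiocyte-like cells.

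**Figure D2:**
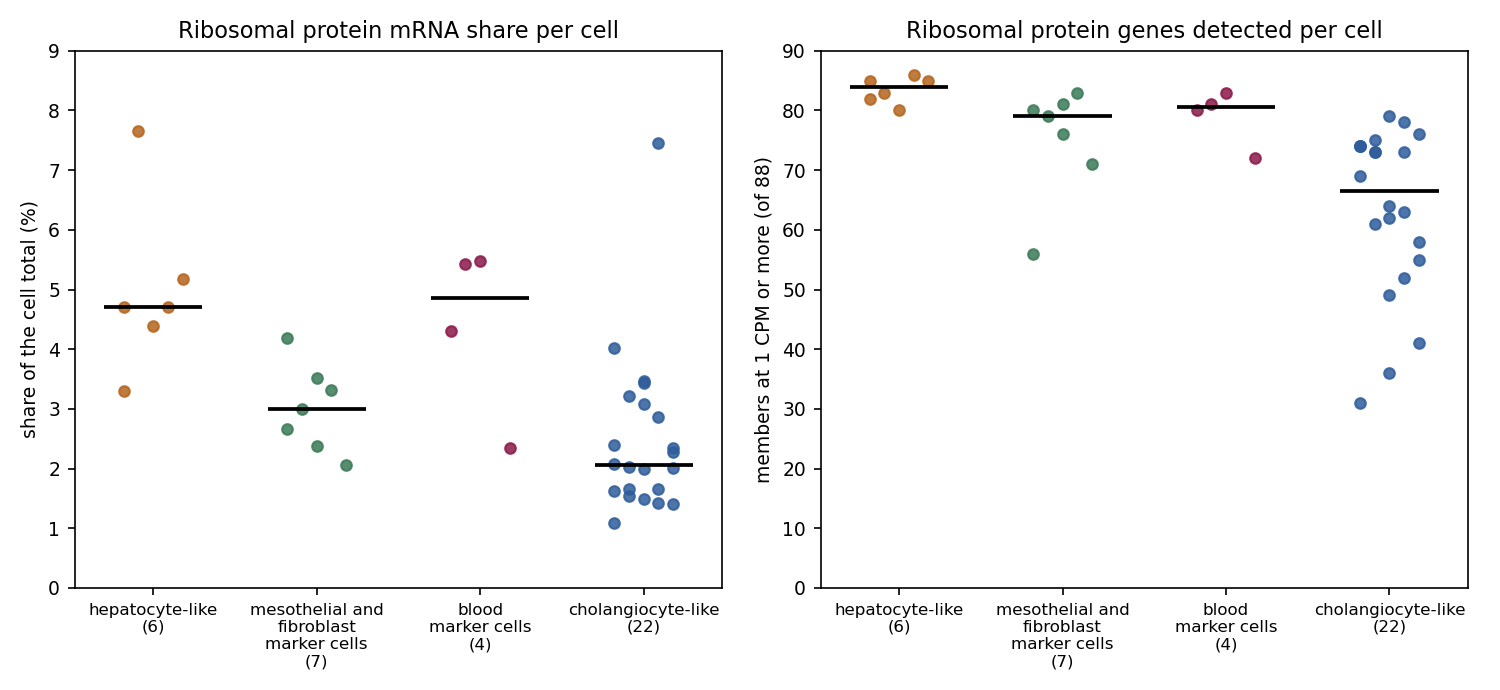
Left, summed ribosomal protein level as a percentage of the summed CPM of each cell, and right, number of the 88 members at 1 CPM or more, by group of cells. Points are cells, bars are medians (4.71%, 3.00%, 4.86% and 2.05% on the left, 84, 79, 80.5 and 66.5 on the right), and 1 cholangiocyte-like cell, cell 24, lies far above its group on the left.

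Detection followed the same order in part. Hepatocyte-like cells held a median of 84 members at 1 CPM (range 80 to 86), mesothelial and fibroblast marker cells 79 (56 to 83), blood marker cells 80.5 (72 to 83) and cholangiocyte-like cells 66.5 (31 to 79). All 73 standard genes were detected in every hepatocyte-like cell. In every mesothelial and fibroblast marker cell 43 were detected, in every blood marker cell 64, and in every cholangiocyte-like cell 5, over groups of unequal size. Every hepatocyte-like cell lay above every cholangiocyte-like cell in the number of members detected. The number of all genes detected was closer between these groups, with medians of 3025 in hepatocyte-like and 2756 in cholangiocyte-like cells.

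Several technical measures differed between the groups as well, and their part in the results was not tested. Rn45s, the ribosomal RNA precursor, took a median of 0.617% of the summed CPM in hepatocyte-like cells and 17.0% in cholangiocyte-like cells. Lars2, a mitochondrial leucyl-tRNA synthetase, took a median of 0.000218% in hepatocyte-like cells and 1.27% in cholangiocyte-like cells. Rorb, a nuclear receptor, took 5.43% in hepatocyte-like cells (1.10% to 12.5%) and 0.00425% in cholangiocyte-like cells. Medians of Rn45s, Lars2 and Rorb were 16.6%, 1.16% and 0.00359% in mesothelial and fibroblast marker cells. They were 18.3%, 1.07% and 0.00325% in blood marker cells. In each of these genes every hepatocyte-like cell lay apart from every other cell, so that group cannot be told apart from these measures. Estimated from the step between low values, the reads behind a cell had a median of 4406489 over 4 of the 6 hepatocyte-like cells and 10455855 over 22 cholangiocyte-like cells. Over the 22 cholangiocyte-like cells the Spearman correlation of the number of members detected was 0.525 with these reads and 0.733 with the number of all genes at 100 CPM, and that of the member share was 0.064 and -0.031. Within cholangiocyte-like cells, those numbered 9 and 11 to 13 had a median share of 3.34% (2.00% to 4.01%) and a median of 75.5 members (74 to 79). The other 18 had a median share of 2.00% (1.09% to 7.46%) and a median of 62.5 members (31 to 78).

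Gene by gene, most members were higher in hepatocyte-like cells than in cholangiocyte-like cells. Higher or lower means a difference in mean log2(CPM + 1) of at least 1, which is 2-fold on that scale. Of the 88 members 69 were higher and 4 were lower, with a median difference of 2.39. Of all 10061 genes 24.0% were higher and 22.8% were lower, with a median difference of -0.20. Among genes detected in at least 20 cells, 65 of 81 members were higher and 4 lower, against 32.5% and 39.9% of 1642 genes. Both subunits took part, with 39 of 51 large and 30 of 37 small subunit members higher. Against the 33 other cells taken as 1 group, 60 members were higher and 7 lower in hepatocyte-like cells, against 21.2% and 26.4% of all genes.

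Rpl35a, a large subunit protein mutated in some cases of Diamond-Blackfan anaemia, differed most, by 6.54. Its median was 564 CPM in hepatocyte-like cells (range 184 to 905) and 1.70 CPM in cholangiocyte-like cells (0 to 154), and the ranges did not overlap. Rpl39, a small protein of the peptide exit tunnel, differed by 6.01, with 138 CPM in hepatocyte-like cells (60.8 to 462) and 0.0988 CPM in cholangiocyte-like cells (0 to 102). It was detected in 6 of 6 hepatocyte-like and 5 of 22 cholangiocyte-like cells, and its ranges overlapped. Rps10, a small subunit protein ubiquitinated when ribosomes collide, differed by 5.59, with 269 CPM in hepatocyte-like cells (39.5 to 475) and 0.255 CPM in cholangiocyte-like cells (0 to 866). The ranges of Rps10 overlapped through a few high cholangiocyte-like cells. Rpl34 was the only other member without overlap. It was at 59.7 CPM in hepatocyte-like cells (22.3 to 436) and 0.806 CPM in cholangiocyte-like cells, whose highest value was 9.48 CPM. The value of Rpl34 alone is uncertain, since its reads could be split with Rpl34-ps1, and so is its separation. Of the short stretches counted above, Rps10 shared 97.0% with other annotated genes, Rpl34 64.3%, Rpl35a 59.7% and Rpl39 22.0%. How far this moved their values was not tested. Ranges that do not overlap, with hepatocyte-like cells higher, were found for 2 of 88 members and for 2.21% of all genes, so on this measure members did not stand above the table.

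Among the 4 members lower in hepatocyte-like cells was Rpl13, which every cell held. Rpl13, a large subunit protein, differed by -2.02. It was at 747, 5.30, 678, 454, 469 and 6.03 CPM in hepatocyte-like cells 1 to 4, 38 and 39, against a median of 530 CPM in cholangiocyte-like cells (13.3 to 17706), and cells 2 and 39 were low while the other 4 lay near the cholangiocyte-like median. Taken from medians in place of means the difference of Rpl13 was -0.20. Rps6 differed by -1.15, with 389 CPM in hepatocyte-like cells (180 to 761) and 1225 CPM in cholangiocyte-like cells (1.00 to 6700). With every cell scaled to the same total, which moved the median difference of all genes by 0.15, Rps6 differed by -0.34, which is not past the threshold. In that setting the median difference was 3.12 for members, against -0.05 for all genes. Rpl31-ps12, also lower on the deposited scaling, differed by -1.03 and was named after its value was seen.

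**Figure D3:**
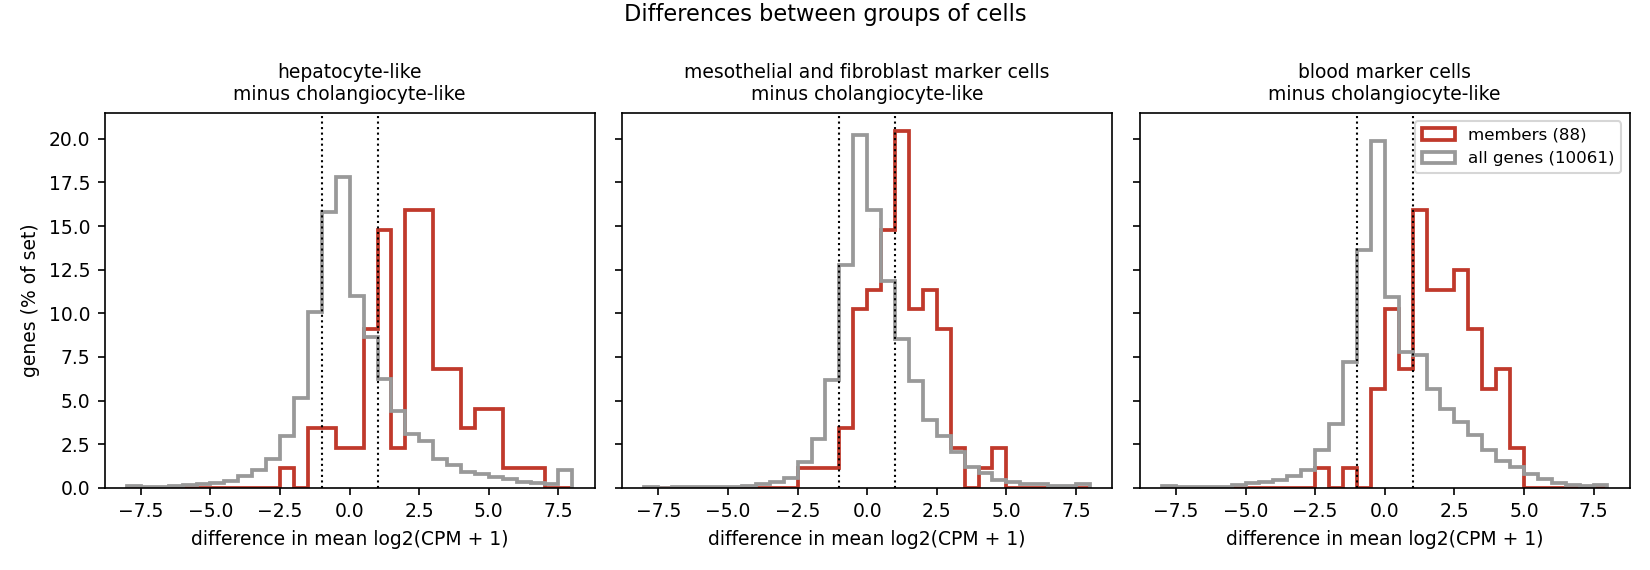
Differences in mean log2(CPM + 1) between each of 3 groups and cholangiocyte-like cells, as the percentage of genes per bin of 0.5, for the 88 members (red) and all 10061 genes (grey). Values beyond 8 on either side are drawn in the end bins and dotted lines mark -1 and 1; the red outline lies right of the grey one in each panel, with medians of 2.39, 1.08 and 1.79.

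Mesothelial and fibroblast marker cells lay nearer to cholangiocyte-like cells. Of the 88 members 50 were higher in them and 3 were lower, with a median difference of 1.08, where 27.3% of all genes were higher and 12.0% were lower and the median was 0.11. Among genes detected in at least 20 cells, 49 of 81 members were higher and 2 lower, against 37.2% and 17.1% of genes. The excess did not hold among the cells numbered 5 to 13, the only run of numbers with several cells of both groups. There, 5 mesothelial and fibroblast marker cells against 4 cholangiocyte-like cells gave 28 members higher and 18 lower, with a median difference of 0.22 while 32.9% of all genes were higher and 19.1% lower. Cell numbers are those of the labels, and what they stand for is not given. No member had ranges without overlap in this comparison, and 0.119% of all genes had, with the mesothelial and fibroblast marker cells higher.

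Rps3a1, Rpl3 and Rpl12 differed most between these groups. Rps3a1 had a median of 1641 CPM in mesothelial and fibroblast marker cells (492 to 2628) and 113 CPM in cholangiocyte-like cells (0.147 to 4438), a difference of 4.68. Rpl3 had 1141 CPM in mesothelial and fibroblast marker cells (471 to 2451) and 48.0 CPM in cholangiocyte-like cells (0 to 3142), a difference of 4.62. Rpl12, a protein at the stalk base where translation factors bind, had 411 CPM in mesothelial and fibroblast marker cells (162 to 841) and 8.92 CPM in cholangiocyte-like cells (0 to 1422), a difference of 4.47. All 7 mesothelial and fibroblast marker cells were high in each of these, while cholangiocyte-like cells ran from near 0 to higher still. Among the 3 lower members were Rpl26 (-1.72), at 2.78 CPM in mesothelial and fibroblast marker cells and 20.2 CPM in cholangiocyte-like cells, and Rps4l (-1.34), whose median was 0 in both groups. Average linkage joined cells 5 to 13, 5 mesothelial and fibroblast marker cells and 4 cholangiocyte-like cells, and set them against cells 14 to 32, so its values of 0.23 for Rpl26 and 1.34 for Rps4l compare other sets of cells.

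Blood marker cells were higher in most members too. Of the 88 members 66 were higher and 2 were lower, with a median difference of 1.79, while 31.6% of all genes were higher, 16.3% were lower and the median was 0.00. Among genes detected in at least 20 cells, 65 of 81 members were higher and 1 lower, against 40.7% and 23.1% of genes. Average linkage on the same markers instead gave clusters that follow the cell numbers: cells 33 to 37 (2 blood marker cells, 2 mesothelial and fibroblast marker cells and 1 cholangiocyte-like cell) and cells 14 to 32 (2 blood marker and 17 cholangiocyte-like cells). In the cluster of cells 33 to 37, 39 members were higher and 8 lower than in that of cells 14 to 32, against 22.7% and 16.9% of all genes. Among cells 14 to 32 alone, the 2 blood marker cells had 76 members higher and 1 lower than the 17 cholangiocyte-like cells, against 30.4% and 21.0% of all genes. All 4 cells carry leukocyte markers, but their other markers differ, with 0 to 9 of 10 granulocyte and 0 to 9 of 9 macrophage markers at 100 CPM. Again no member had ranges without overlap, and 0.318% of all genes had, with blood marker cells higher.

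In the blood marker cells numbered 29, 32, 33 and 36, Rpl35a was at 206, 190, 92.1 and 98.3 CPM, against a median of 1.70 CPM in cholangiocyte-like cells (0 to 154), a difference of 4.82. Rpl29, a small protein of the large subunit, was at 1601, 318, 213 and 573 CPM in those cells, against 6.32 CPM in cholangiocyte-like cells (0 to 1897), a difference of 4.57. Rps4x, the X-linked small subunit gene, was at 2106, 349, 556 and 1723 CPM, against 86.4 CPM in cholangiocyte-like cells (0 to 14380), a difference of 4.37. For all 3 the blood marker cells lay within the range of the cholangiocyte-like cells or, for Rpl35a, both within and above it. The lower members were Rpl14-ps1 (-2.46), at 0, 3.68, 0.0154 and 1.91 CPM, against 9.07 CPM in cholangiocyte-like cells, and Rps4l (-1.39), listed at 0 in all 4. The next lowest, Rpl26, differed by -0.34, and by 1.16 among cells 14 to 32 alone. The 3 comparisons share the cholangiocyte-like cells, so a member that is low there is higher in each.

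Within single cells, the sums of the large and small subunit moved together. The ratio of summed large to summed small subunit CPM had a median of 1.22, from 0.640 in cell 16 to 2.85 in cell 27, and the large sum was the higher in 28 of 39 cells. The sums had a Spearman correlation of 0.835 over the 39 cells and 0.776 over the 22 cholangiocyte-like cells, which share the scaling factor of each cell. By group the ratio had a median of 1.17 in hepatocyte-like cells (0.823 to 1.49), 1.07 in mesothelial and fibroblast marker cells (0.700 to 1.46), 1.20 in blood marker cells (1.13 to 1.28) and 1.36 in cholangiocyte-like cells (0.640 to 2.85). The 4 ranges overlap.

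**Figure D4:**
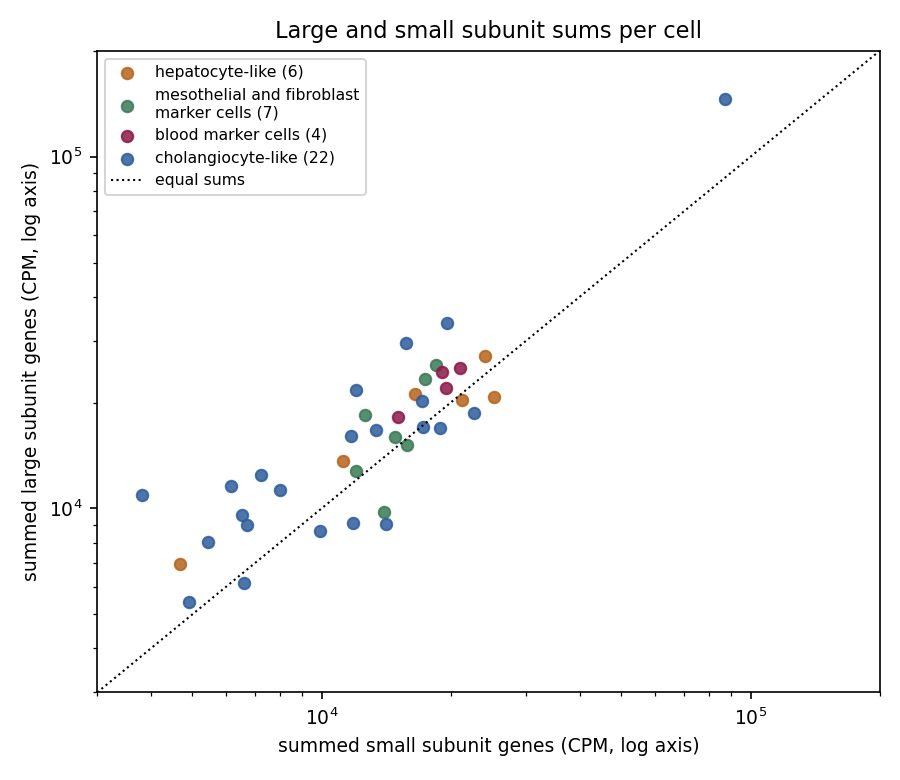
Summed CPM of large subunit members against that of small subunit members in each of the 39 cells, on log axes, with colours for the groups and a dotted line where the sums are equal. The cells follow the line, with 28 of 39 above it, and cell 24 lies alone at the upper right.

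Single members were tied to each other far less than their sums. Among the 81 members detected in at least 20 cells, the median Spearman correlation over the 39 cells was 0.241 for 3240 pairs, and 89.7% of pairs were above 0. Over all 1642 genes detected as often the median was 0.0204, and 53.9% of pairs were above 0. Pairs within the small subunit had a median of 0.311, pairs within the large subunit 0.197 and pairs across subunits 0.249. Within the 22 cholangiocyte-like cells the median was 0.206 for members and 0.0164 for all genes. The cells differ in depth and scaling, and these values are descriptions.

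Rps15a (0.395), Rps29 (0.393), a zinc-binding protein of the small subunit head, and Rps12 (0.377) had the highest median correlation with the other members. The lowest belonged to Rpl7l1 (-0.0867), Rpl15 (0.0107) and Rps6 (0.0314). Rpl15, a large subunit protein, was detected in 36 cells at a median of 429 CPM and was highest in cell 33, a blood marker cell, at 1610 CPM.

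The 6 ribosomal protein genes outside the pattern were high in the same groups of cells as the members. The mean log2(CPM + 1) of these genes followed that of the members over the cells (Spearman 0.896 over 39 cells and 0.765 over the 22 cholangiocyte-like cells), and all 6 were higher in each of the 3 groups than in cholangiocyte-like cells. Among all genes that are not members and were detected in at least 20 cells, Rplp1 (0.831) and Rplp2 (0.779) ranked 1 and 2 by their correlation with the member mean. Rplp1 and Rplp2 encode the acidic stalk proteins of the large subunit. The 10 highest also held Atp5k (0.771), Atp5g3 (0.744), Atp5d (0.720) and Atp5o (0.690), subunits of the mitochondrial ATP synthase, P4hb (0.726), a protein disulfide isomerase, Tubb4b (0.694), a beta tubulin, and Krtcap2 (0.693), a subunit of the oligosaccharyltransferase. Within the cholangiocyte-like cells these 10 ranged from 0.374 for Krtcap2 to 0.805 for Atp5d.

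The 5 genes with the lowest correlation with the member mean included early response genes. They were Hbegf (-0.749), an EGF receptor ligand, Jun (-0.730) and Junb (-0.715), parts of the AP-1 transcription factor, Btg2 (-0.705), an antiproliferative immediate early gene, and Rasd2 (-0.697), a small GTPase. Within the 22 cholangiocyte-like cells the values were -0.448, -0.528, -0.361, -0.624 and -0.383 in the same order. For the list of 18 dissociation and immediate early genes, the mean log2 level had a Spearman correlation with the member mean of -0.613 over 39 cells and -0.299 within the cholangiocyte-like cells. Of these 18 genes, 0 were higher and 16 lower in hepatocyte-like than in cholangiocyte-like cells, 3 higher and 9 lower in mesothelial and fibroblast marker cells, and 0 higher and 15 lower in blood marker cells. Of all genes, 22.8%, 12.0% and 16.3% were lower in these 3 comparisons. Their summed level had a median of 233 CPM in hepatocyte-like cells, 15558 CPM in mesothelial and fibroblast marker cells, 2888 CPM in blood marker cells and 26708 CPM in cholangiocyte-like cells. Whether the stress of dissociation or the cell type goes with the ribosomal protein level was not tested.

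**Figure D5:**
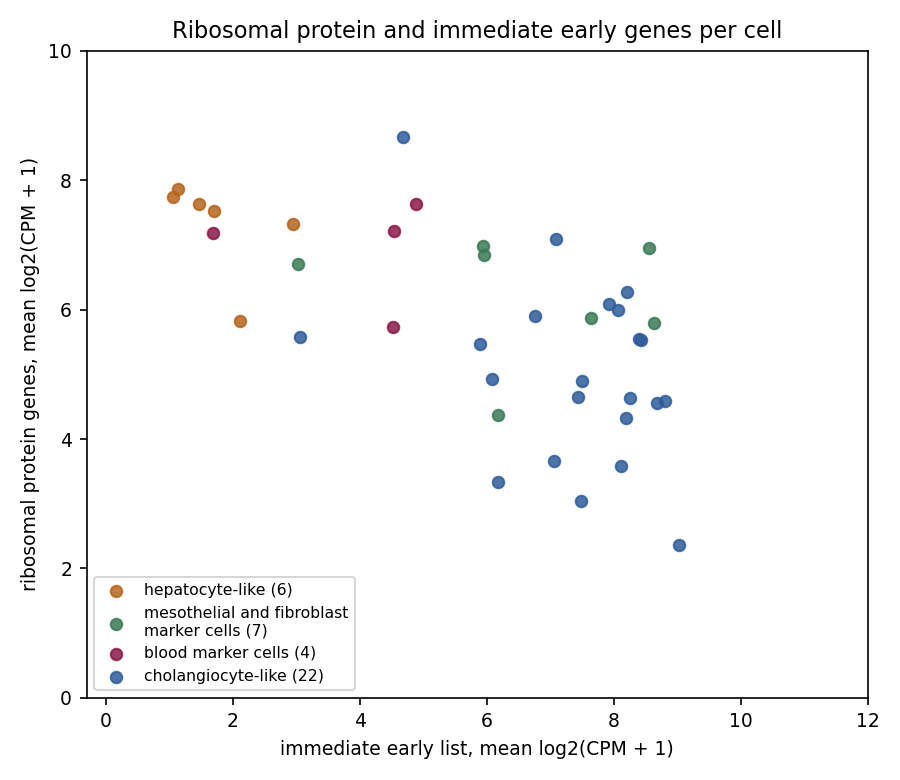
Mean log2(CPM + 1) of the 88 members against that of 18 dissociation and immediate early genes in each cell, with colours for the groups. Hepatocyte-like cells lie at the upper left and most cholangiocyte-like cells at the right, and over all 39 cells the Spearman correlation was -0.613.

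Other genes of translation are counted here against the shares of all genes given above: 24.0% higher and 22.8% lower in hepatocyte-like cells, 27.3% and 12.0% in mesothelial and fibroblast marker cells, and 31.6% and 16.3% in blood marker cells. Of 20 translation factor and related genes whose mRNAs also carry TOP tracts, 10 were higher and 3 lower in hepatocyte-like cells than in cholangiocyte-like cells, 9 and 2 in mesothelial and fibroblast marker cells, and 15 and 0 in blood marker cells. Their mean followed the member mean (Spearman 0.711 over 39 cells and 0.732 over 22). Gene by gene the median correlation over 39 cells was lower, 0.287 for the 15 detected in at least 20 cells. Of 73 mitochondrial ribosomal protein genes, whose products form the separate ribosome of that organelle, 33 (45.2%) were higher and 5 (6.85%) lower in hepatocyte-like cells, 28 (38.4%) and 7 (9.59%) in mesothelial and fibroblast marker cells, and 39 (53.4%) and 6 (8.22%) in blood marker cells, and their mean followed the member mean as well (0.836 and 0.703). Those genes were far less often seen, in a median of 11 cells each. Taken singly, the 11 mitochondrial ribosomal protein genes detected in at least 20 cells had a median correlation with the member mean of 0.134. Over the 1561 genes that are not members and were detected as often, the median was 0.0437.

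Of 34 assembly genes, such as those of nucleolar proteins and RNA polymerase I, 4 (11.8%) were higher and 8 (23.5%) lower in hepatocyte-like than in cholangiocyte-like cells, with a median difference of 0.14. The share lower is near the 22.8% of all genes, and the share higher is below their 24.0%. In mesothelial and fibroblast marker cells 15 (44.1%) were higher and 1 (2.94%) lower, and in blood marker cells 21 (61.8%) and 1 (2.94%). The correlation of their mean with the member mean was 0.303 over 39 cells and 0.313 over 22. For the 6 assembly genes detected in at least 20 cells the median correlation of single genes was 0.0904. They were detected in a median of 10 cells each, so that their levels are near the limit of detection.

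The remaining lists are short, and their counts are set beside the same shares of all genes. Of 13 housekeeping genes 4 (30.8%) were higher and 4 (30.8%) lower in hepatocyte-like cells, where 24.0% and 22.8% of all genes were. In mesothelial and fibroblast marker cells 7 (53.8%) were higher and 1 (7.69%) lower, where 27.3% and 12.0% of all genes were, and in blood marker cells 9 (69.2%) and 1 (7.69%), where 31.6% and 16.3% were. Of 15 growth signalling genes, Mtor and Larp1 pathway members included, the counts were 3 and 3, 5 and 1, and 10 and 0 in the same order of groups. Of 13 proliferation genes they were 0 and 3, 7 and 0, and 11 and 0. The means of these lists had Spearman correlations with the member mean of 0.436, 0.393 and -0.150 over 39 cells. For the 8 housekeeping genes detected in at least 20 cells the median correlation of single genes was -0.0841. In blood marker cells most genes of the housekeeping, growth, proliferation and assembly lists were higher, and in hepatocyte-like cells 4 of 13, 3 of 15, 0 of 13 and 4 of 34 were.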

How the data were processed

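The deposited table holds log2 values of 13568 RefSeq transcripts in 39 cells. Bowtie 0.12.9, eXpress 1.5.1, edgeR and the build mm9 are named in the submitters' processing notes, without order or settings. The lowest deposited log2 value, shared by all cells, equals 0.167 on the linear scale and was subtracted after raising 2 to each value, giving the unit called CPM here, whose scale was inferred from the values and which no label names. The linear total per cell lay between 351255 and 3128332, so a scaling factor per cell remains, and transcripts of a symbol were summed. Depth in reads was estimated from the step between low values, with a median of 11415594 over 37 cells, and is unknown for cells 38 and 39.

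Cells were grouped by Ward linkage on 106 measured marker genes. The planned rule, the highest silhouette for 2 to 6 groups, gave 2 groups of 6 and 33 cells (0.390), and the 4 groups used (0.359) are those the planned comparisons need. Because all cells form 1 group in the labels, no p-value or standard error was made, and intervals are exact Clopper-Pearson and cover counting of cells alone. Levels per kilobase used the shortest GENCODE M21 transcript of the gene with the same coding length, had for 85 members. Sequences and start sites are from RefSeq in GRCm38.p6, a build other than mm9, and 63 members matched. Named members were the 5 highest per kilobase, those detected in fewer than 10 cells, the 3 highest and 3 lowest by correlation, the 5 with the largest spread, the 3 largest and smallest differences of each comparison, copies with their parents and a list of fixed roles. Among other genes they were the 10 highest and 5 lowest by correlation with the member mean and the fixed lists. The members, marker lists and gene lists were chosen with earlier results of these data known. Results of some genes that these rules name are not reported here. Doublets were not called and no cell was removed. Procedures were tested on simulated data. Python 3.11.15 with numpy 2.4.6, pandas 2.3.3, scipy 1.17.1 and scikit-learn 1.9.0 was used.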

Additional observations from a re-analysis of the deposited data

How the results depend on the processing

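Of 110 values recomputed for the main results, 102 kept their direction and size within the limits set (the spread over cells or pairs, or 1.5 times a count). For results that are not counts these limits were wide. The limit was 34667 CPM for a summed member level of 30902 CPM, and 1.59 for a member share of 2.86%. For the median correlation it was 0.183, against a value of 0.241. For such results the count says little about how far the values hold. The number of members detected in all cells was 26 at any value above 0, 2 at 10 CPM, 0 at 100 CPM and 11 without the 3 cells with the fewest genes, and at 100 CPM a median of 43 members was detected per cell. Mesothelial and fibroblast marker cells had 33 members higher than cholangiocyte-like cells with a pseudocount of 10. The share of all genes higher at that pseudocount is not given here, so the count alone does not set members against all genes. The median difference there was 0.74 for members and 0.003 for all genes. Within cells 5 to 13 they had 28 members higher, where 32.9% of all genes were higher. With average linkage the count for blood marker cells is that of another set, cells 33 to 37 against cells 14 to 32, and was 39. For the other changes the cause was not tested. Over its alternatives, the count of members higher in hepatocyte-like cells ran from 54 to 78. For most of these settings the share of all genes higher is not given here, so the range does not set members against all genes. The median member share ran from 2.38% to 3.39% and the large to small ratio from 1.21 to 1.31. The median correlation between members ran from 0.206 to 0.276. Of 186 values for named members 168 stayed on their side of the threshold, 15 fell below it and 3 changed sign with either value past it. Of these 3, Rpl26 (0.23) and Rps4l (1.34) compare cells 5 to 13 with cells 14 to 32, the clusters of average linkage. The third was Rpl26 in blood marker cells against cholangiocyte-like cells within cells 14 to 32 (1.16). A pseudocount of 0.1 moved the median difference of all genes by 0.18 in mesothelial and fibroblast marker cells and by 0.21 in blood marker cells, and one of 10 moved the first of these by -0.11. The 2-group reference, the 20-cell filter, the settings without cell 24, without 3 cells or without Rps19bp1, and the values within cholangiocyte-like cells, within cells 5 to 13 and within cells 14 to 32 were chosen after seeing the data. No paired analysis was possible because the labels give 1 group, and leaving out each replicate does not apply to 39 cells of it. Depth limits the members of low level: 1 CPM stood for few reads in the shallowest cells, and a value listed at 0 need not mean that the mRNA was missing.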
